A study of Mus musculus with 8 samples.

Results

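The transcripts of 8 genes through which brain myeloid cells sense or process extracellular nucleotides were followed in CD11b+ brain cells of 8 mice, 4 of them control and 4 CSF1 OE. They were taken by name as genes of ATP, UDP and adenosine signaling, namely the ATP-gated channels P2rx7 and P2rx4, the UDP receptor P2ry6, the ectonucleotidases Entpd1 and Nt5e, the adenosine receptors Adora3 and Adora2a, and the potassium channel Kcnk13. All 8 were found among the 20308 genes of the count table and all 8 were among the 13407 genes with enough counts to be tested. No level in these libraries was used to choose them, although the choice was made with other results of the same libraries known.

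In CSF1 OE mice, some of the GFAP+ cells carried an active tTA and TRE transgene for the secreted form of CSF1, a cytokine that microglia need for survival and that drives their proliferation. The transgene was thus driven in GFAP+ cells and not in the myeloid cells that were sequenced. Both genotypes were F1 offspring of C57Bl/6 and CD1 parents, aged p14 or p15, and the age of each mouse is not given in the sources used here. Cells were purified from the right hemisphere with CD11b beads after myelin had been removed, and every mouse gave 1 library, so that p-values measure the spread between mice. CD11b is carried by microglia and also by macrophages, monocytes and neutrophils, so the purified cells are not microglia alone.

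The libraries held 12053280 to 15475488 counts. A pair of them stood apart before genotype was considered. The first principal component of all tested genes held 49.8% of the variance, and it placed control mouse 1934 at -57.2 and CSF1 OE mouse 2019 at 62.1, with the other 6 mice between -20.2 and 23.9. The microglial identity of the cells was checked with 11 markers, all of which were tested and none of which was at 0. Their summed level was 20277 to 35851 CPM (counts scaled to a common library size) in control and 26686 to 37305 CPM in CSF1 OE mice, lowest in mouse 1934 and highest in mouse 2019. Itgam, which encodes CD11b, was at 1793 to 2771 CPM in the control mice and 2184 to 3117 CPM in the CSF1 OE mice. The 12 endothelial markers summed to 1171 to 1950 CPM in the control mice and 585 to 1342 CPM in the CSF1 OE mice. This sum was lowest in mouse 2019 and highest in mouse 1934, all 12 markers had lower estimates in CSF1 OE mice, and none was called. The 9 border macrophage markers summed to 1626 to 2548 CPM in control and 1326 to 1951 CPM in CSF1 OE mice. Of these 1 had a higher and 8 a lower estimate in CSF1 OE mice, with 0 called. RNA of other brain cells was also present. The 7 oligodendrocyte markers summed to 2947 to 6165 CPM in control and 1609 to 5008 CPM in CSF1 OE mice. The 4 choroid plexus markers summed to 3787 to 5125 CPM in control and 1504 to 5931 CPM in CSF1 OE mice. Both sums were lowest in mouse 2019. Sums of different markers do not rank cell types by amount. Csf1 itself (log2 fold change 0.19, SE 0.33, adjusted p = 0.796 by edgeR) does not check the labels, since the transgene is not driven in the purified cells.

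ATP leaves stressed or active cells and acts on P2X receptors, which are ion channels opened by ATP, and on P2Y receptors, which couple to G proteins and also answer to ADP, UTP or UDP. Outside the cell, the ectonucleotidase CD39, encoded by Entpd1, strips ATP and ADP to AMP, and CD73, encoded by Nt5e, turns AMP into adenosine, which acts on adenosine receptors. In microglia P2ry12 directs processes toward ATP sources, P2rx7 is the classic trigger of the NLRP3 inflammasome and of interleukin-1 release, P2ry6 is associated with phagocytosis, and THIK-1, the K2P channel encoded by Kcnk13, lets out potassium and sets the resting membrane potential.

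The 8 genes covered a wide range of levels, and the order was nearly the same in every mouse. Between genes the scale was CPM per kilobase of merged exon, since longer transcripts give more reads. Merged exons join all annotated transcripts of a gene, to 7025 bases for P2rx4 and 8602 for Nt5e. Which transcripts these cells made was not tested, and the order and ratios of the genes depend on these lengths. Entpd1 was the highest of the 8, with 110.1 ± 21.6 CPM per kilobase in control and 103 ± 20.3 in CSF1 OE mice (SD, n = 4 each here and below). P2ry6 followed with 66.9 ± 18.9 in control and 63.9 ± 14.8 in CSF1 OE mice, and P2rx7 with 59.2 ± 6.34 and 56.3 ± 7.28. The order of this pair was not fixed, since P2ry6 exceeded P2rx7 in 5 of 8 libraries. Adora3 was at 23.2 ± 6.69 CPM per kilobase in control and 22.1 ± 4.71 in CSF1 OE mice, close to Kcnk13 at 21.6 ± 4.90 and 21.1 ± 3.74. Adora3 was the higher of this pair in 6 of 8 libraries, with ratios from 0.905 to 1.24. P2rx4 lay below both, at 5.19 ± 0.782 in control and 5.98 ± 1.25 in CSF1 OE mice. Adora2a reached 1.33 ± 0.543 and 0.977 ± 0.516 CPM per kilobase, and Nt5e 0.427 ± 0.171 and 0.330 ± 0.156. Every other pair of neighbours in this order kept it in 8 of 8 libraries. RNA of the enzyme that removes ATP was therefore 116 to 408 times that of the AMP-hydrolysing enzyme per exon length in control and 161 to 865 times in CSF1 OE mice. A difference of this ratio between genotypes did not pass (two-sided exact permutation test, p = 0.629, and 0.629 after adjustment over 3 ratios chosen after the levels were seen).

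**Figure D1:**
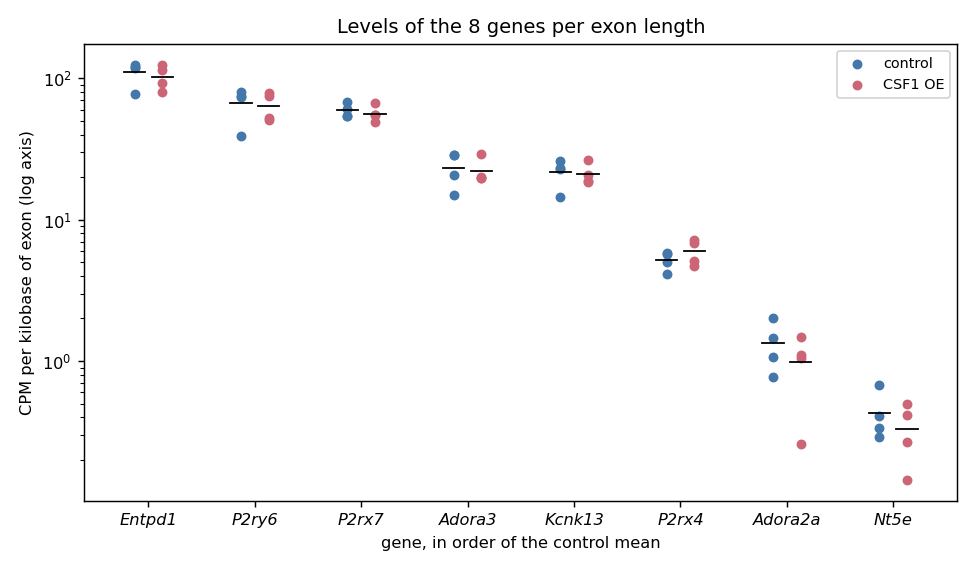
CPM per kilobase of exon on a log axis for each of the 8 genes, ordered by the control mean, with 1 point per mouse (blue control, red CSF1 OE) and a line at the mean. Entpd1 is highest at 77.9 to 125 and Nt5e lowest at 0.144 to 0.674, and the genotypes overlap for every gene.

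None of the 8 genes was called different between CSF1 OE and control mice. The call required a Benjamini-Hochberg adjusted p under 0.05 by edgeR's quasi-likelihood test over all 13407 genes and a fold change under 0.7 or over 1.43. By this rule 59 genes of the whole table were called, which is 0.44% of those tested. None of the 8 had genotypes that did not overlap, against 10.3% of all genes tested, and none had an unadjusted p under 0.05, against 16.5%. DESeq2 and limma also called 0 of the 8, and 0 had an unadjusted p under 0.05 by either. On the log2 scale 1 of the 8 estimates was above 0 and 7 were below, where 44.8% of all genes tested had one above 0. The median of the 8 was -0.070 and the median of all genes was -0.034. The 95% interval lay inside the fold thresholds for P2rx7 and Kcnk13 and reached past them for the other 6. In bulk RNA, fewer cells of a type and less RNA per cell cannot be told apart.

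**Figure D2:**
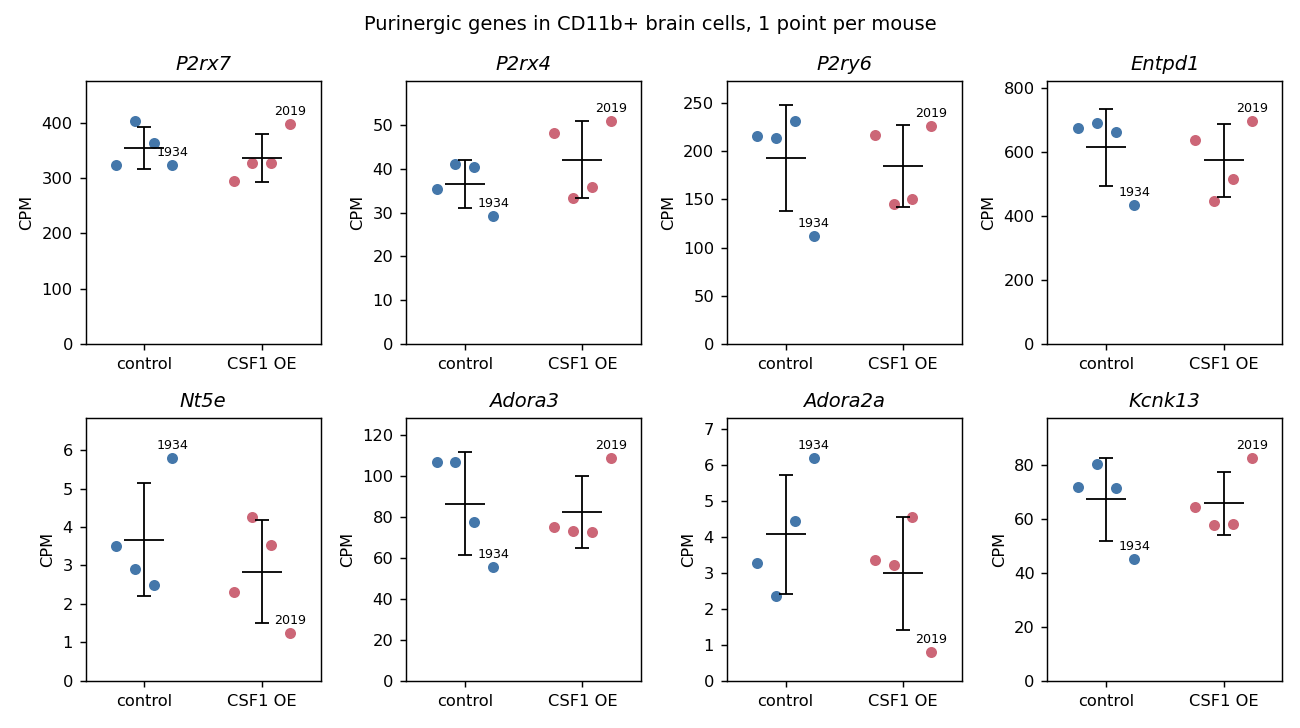
CPM of each of the 8 genes, with 1 point per mouse in the 4 control (blue) and 4 CSF1 OE (red) mice, a line at the mean and bars of 1 SD, and mice 1934 and 2019 marked. Mouse 1934 is lowest of its group for 6 genes and highest for Nt5e and Adora2a, while mouse 2019 is highest for 6 genes and lowest for Nt5e and Adora2a.

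P2rx7 encodes the channel that opens at high ATP and can pass large molecules when held open (chr5:122643911-122691432, plus strand, GRCm38, with 17 merged exons). Control mice 1827, 1872, 1874 and 1934 had 324, 403, 364 and 323 CPM, and CSF1 OE mice 1931, 1932, 1936 and 2019 had 295, 326, 327 and 397 CPM. The groups overlapped almost throughout, with 1 CSF1 OE mouse below the lowest control. The means were 353 ± 37.9 and 336 ± 43.4 CPM, a log2 fold change of -0.072 (SE 0.12, 95% interval -0.34 to 0.20, adjusted p = 0.785 by edgeR). As a fold this interval ran from 0.790 to 1.15. P2rx7 was also the steadiest of the 8 between mice, with a pooled SD of 0.167 on the log2 scale against a median of 0.224 over all genes tested.

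P2rx4, its neighbour on the same chromosome (chr5:122707544-122729738, plus strand), encodes a more ATP-sensitive channel found largely in lysosomal membranes. Control mice, in the same order, had 35.3, 41.0, 40.4 and 29.2 CPM, and CSF1 OE mice had 48.2, 33.2, 35.9 and 50.8 CPM. Both the highest values belonged to CSF1 OE mice, 1931 and 2019, while the other CSF1 OE mice lay within the control range. P2rx4 was the 1 gene with a higher estimate in CSF1 OE mice, with means of 36.5 ± 5.50 and 42.02 ± 8.78 CPM and a log2 fold change of 0.20 (SE 0.17, 95% interval -0.18 to 0.58, adjusted p = 0.575 by edgeR). The estimate was 0.015 without mice 1934 and 2019. Per exon length P2rx7 exceeded P2rx4 by 10.6 to 13.03 times in control and by 7.19 to 11.6 times in CSF1 OE mice (two-sided exact permutation test, p = 0.2, and 0.6 after adjustment over the 3 ratios).

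P2ry6 (chr7:100937630-100974649, minus strand) encodes the UDP receptor. Control mice had 215, 214, 231 and 112 CPM, and CSF1 OE mice had 217, 145, 150.2 and 226 CPM. The other control mice lay close together, mouse 1934 was the lowest of all 8, and the groups overlapped. The means were 193 ± 54.6 and 185 ± 42.8 CPM, and the log2 fold change was -0.066 (SE 0.24, 95% interval -0.61 to 0.48, adjusted p = 0.908 by edgeR). Without mice 1934 and 2019 the estimate was -0.36 (adjusted p = 0.254).

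Entpd1 (chr19:40612366-40741602, plus strand) encodes CD39, the surface enzyme that ends ATP signals. Control mice had 673, 689, 661 and 435 CPM, and CSF1 OE mice had 636, 445, 516 and 695 CPM. Mouse 1934 was again below the other control mice and mouse 2019 had the highest value of all 8. The means of 614 ± 120.3 and 573 ± 113 CPM gave a log2 fold change of -0.099 (SE 0.19, 95% interval -0.52 to 0.32, adjusted p = 0.809 by edgeR).

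Nt5e (chr9:88327197-88372092, plus strand), which encodes CD73, was rare in these cells, with 14 to 98 counts a library. Control mice had 3.49, 2.90, 2.49 and 5.80 CPM, and CSF1 OE mice had 2.30, 4.26, 3.54 and 1.24 CPM. The extremes were reversed with respect to Entpd1, mouse 1934 being highest and mouse 2019 lowest. The log2 fold change of -0.37 was uncertain (SE 0.41, 95% interval -1.29 to 0.55, adjusted p = 0.681 by edgeR), and it was 0.19 without these 2 mice.

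Adora3 (chr3:105870858-105908926, plus strand) encodes an adenosine receptor that couples to inhibitory G proteins. Its counts are uncertain to the extent that 779 of its annotated exon bases, 20.9%, are shared with Tmigd3 on the same strand, so that reads there fit both genes. Tmigd3 had no row under that symbol in the count table, and reads of it may be counted as Adora3. Control mice had 107, 107, 77.3 and 55.4 CPM, and CSF1 OE mice had 75.1, 73.3, 72.9 and 109 CPM. The CSF1 OE mice 1931, 1932 and 1936 were nearly equal and mouse 2019 stood above them, at the level of the 2 highest control mice. The means were 86.6 ± 25.0 and 82.6 ± 17.6 CPM, with a log2 fold change of -0.068 (SE 0.22, 95% interval -0.57 to 0.43, adjusted p = 0.894 by edgeR).

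Adora2a (chr10:75316877-75334784, plus strand) encodes the receptor that couples to stimulatory G proteins and is abundant in striatal neurons and present on blood vessels. It had 9 to 105 counts a library. Control mice had 3.29, 2.35, 4.46 and 6.21 CPM, and CSF1 OE mice had 3.37, 3.23, 4.57 and 0.797 CPM. Mouse 2019 was far below every other mouse and mouse 1934 above them, and the remaining 6 were mixed. The summed level of 8 neuronal markers was also highest in mouse 1934 and lowest in mouse 2019. It was 91.3 to 359 CPM among control and 45.5 to 214 CPM among CSF1 OE mice. The sums of endothelial, mural cell and oligodendrocyte markers had the same extremes. The part of any of these cell types in the Adora2a values was not tested. The log2 fold change was -0.44 (SE 0.48, 95% interval -1.52 to 0.64, adjusted p = 0.675 by edgeR), but 0.16 without these 2 mice. Its pooled SD of 0.837 on the log2 scale was larger than that of 95.4% of all genes tested. The ratio of Adora3 to Adora2a per exon length was 7.33 to 37.2 in control and 13.1 to 112 in CSF1 OE mice (two-sided exact permutation test, p = 0.6, and 0.629 adjusted over the 3 ratios).

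Kcnk13 (chr12:99964499-100062682, plus strand) showed the smallest estimate of the 8. Control mice had 71.8, 80.4, 71.3 and 45.2 CPM, and CSF1 OE mice had 64.6, 57.9, 58.1 and 82.6 CPM. Mouse 1934 was the lowest and mouse 2019 the highest of all 8, with the other mice between them. The means were 67.2 ± 15.3 and 65.8 ± 11.6 CPM, and the log2 fold change of -0.031 (SE 0.18, adjusted p = 0.943 by edgeR) had a 95% interval of fold from 0.733 to 1.31.

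A group of 4 genes, P2ry6, Entpd1, Adora3 and Kcnk13, varied together from mouse to mouse. No rule made in advance set this group, so its correlations are a description. Over the 8 libraries the 6 pairs among these genes had Pearson r from 0.779 to 0.960, all sharing the same libraries. P2rx4 was not far from the group, with r of 0.814 with P2ry6, 0.779 with Entpd1, 0.765 with Kcnk13 and 0.580 with Adora3. Levels of the 4 genes also followed the summed level of the 11 microglial markers, whose log2 difference between genotypes was 0.012 (two-sided exact permutation test, p = 0.971). For Kcnk13 the relation over the 8 mice gave r = 0.982 (exact permutation p = 4.96e-05, adjusted over 16 relations 0.000397) and Spearman's rho = 0.976 (exact permutation p = 0.000397, adjusted 0.00212). It held without mice 1934 and 2019, the mice farthest from the median, at r = 0.945. For Adora3 r was 0.957 (exact permutation p = 4.96e-05, adjusted 0.000397), rho was 0.976 (exact permutation p = 0.000397), and r was 0.918 without these mice. For Entpd1 the same measures were r = 0.907 (exact permutation p = 0.000248, adjusted 0.00132), rho = 0.976 (exact permutation p = 0.000397) and r = 0.874. P2ry6 had r = 0.917 (exact permutation p = 0.00402, adjusted 0.0137) and 0.801 without the 2 mice, while its rho of 0.690 did not pass (exact permutation p = 0.0694). Taken as deviations from the genotype means, r was 0.983 for Kcnk13, 0.960 for Adora3, 0.926 for Entpd1 and 0.920 for P2ry6. Such patterns were not particular to these genes. Outside the 8, r was over 0.9 for 304 tested genes with Kcnk13, 387 with Entpd1, 344 with P2ry6 and 160 with Adora3. How many of all tested genes follow the microglial sum was not counted.

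**Figure D3:**
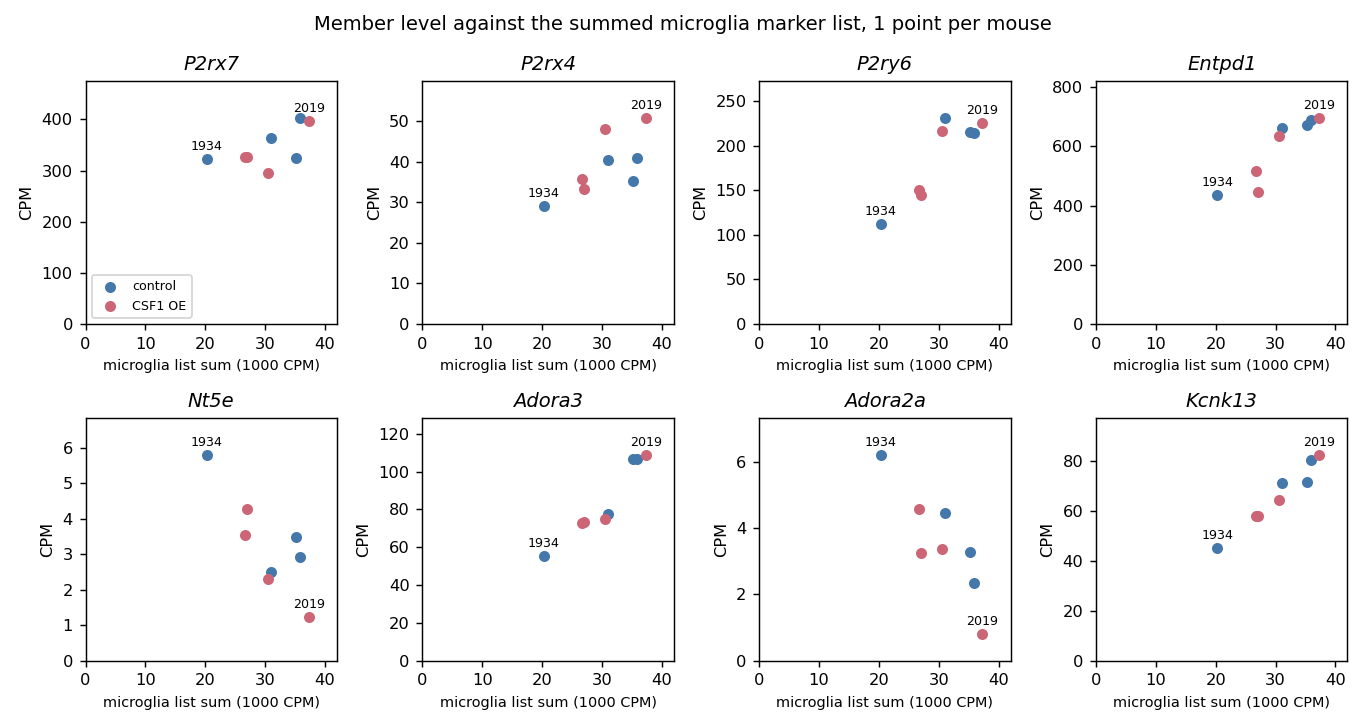
CPM of each of the 8 genes (vertical) against the summed CPM of 11 microglial markers, in units of 1000 CPM (horizontal), with 1 point per mouse, blue for control and red for CSF1 OE. Kcnk13 and Adora3 lie near a line (r = 0.982 and 0.957), and Nt5e and Adora2a run the opposite way (r = -0.770 and -0.745).

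The P2X receptors had lower correlations with this sum, and the low genes ran against it, but differences between correlations were not tested. P2rx4 had r = 0.742 (exact permutation p = 0.0337, adjusted 0.0771) and 0.304 without mice 1934 and 2019, so that the relation rested on them. P2rx7 had r = 0.549 (exact permutation p = 0.151, adjusted 0.186). For Nt5e r was -0.770 (exact permutation p = 0.0280, adjusted 0.0746) and -0.364 without these mice. Adora2a had r = -0.745 (exact permutation p = 0.0448, adjusted 0.0853) and rho = -0.833 (exact permutation p = 0.0154, adjusted 0.0615). With the endothelial sum, Adora2a had r = 0.906 (exact permutation p = 0.00427, adjusted 0.0137), which fell to 0.549 without mice 1934 and 2019, and rho = 0.762 (exact permutation p = 0.0368, adjusted 0.0980). No other of the 8 relations with the endothelial sum passed after adjustment, with adjusted p from 0.0853 to 0.528 for r. Whether other cell types account for the RNA of Nt5e or Adora2a was not tested. By animal number, mice 1931, 1932, 1934 and 1936 form a run of close numbers and the other 4 do not, and 4 mice are too few for a relation among them.

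Set against the microglial sum, Kcnk13 varied far less. It was at 2.04 to 2.30 CPM per 1000 CPM of the sum in control and 2.12 to 2.21 in CSF1 OE mice. Its SD on the log2 scale was 0.0572 against 0.311 for its CPM, each SD of this paragraph being pooled within genotypes. Adora3 was at 2.50 to 3.03 in control and 2.46 to 2.92 in CSF1 OE mice (SD 0.115 against 0.376), and Entpd1 at 19.1 to 21.4 and 16.5 to 20.9 (SD 0.119 against 0.304). P2ry6 narrowed in the same way, to an SD of 0.180 from 0.421, and P2rx4 to 0.192 from 0.269. By contrast P2rx7 widened to 0.258 from 0.167, Nt5e to 0.946 from 0.673 and Adora2a to 1.16 from 0.902. A gene that follows the sum narrows when divided by it, so these SDs restate the correlations above. The genotypes overlapped for all 8 genes on this scale too, with two-sided exact permutation p between 0.2 (Entpd1) and 0.714 (P2rx7). A microglial covariate in edgeR was an alternative chosen once the data were known. It was the mean log2 CPM of the 11 microglial markers, not their sum. With it the 95% intervals of the log2 fold change narrowed for all 8 genes. They ran from -0.19 to 0.12 for Kcnk13, -0.23 to 0.11 for Adora3, -0.32 to 0.11 for Entpd1 and -0.33 to 0.22 for P2ry6. For the others they ran from -0.086 to 0.46 for P2rx4, -0.30 to 0.14 for P2rx7, -0.997 to 0.29 for Nt5e and -1.17 to 0.31 for Adora2a.

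The direction of the estimates turned on which mice were kept and which covariate or term the fit held. The endothelial covariate was the mean log2 CPM of the 12 endothelial markers, not their sum. With it the log2 fold change was -0.52 for Adora3 (adjusted p = 0.117), -0.38 for Kcnk13 (adjusted p = 0.229), -0.41 for Entpd1 (adjusted p = 0.246) and -0.44 for P2ry6 (adjusted p = 0.352) by edgeR. Adora2a moved to 0.58 (adjusted p = 0.304), Nt5e to 0.27 and P2rx4 to -0.066 in that fit. All 12 endothelial markers had lower estimates in CSF1 OE mice, so that this fit cannot fully part the covariate from genotype. With mice 1934 and 2019 left out together, Adora3 was at -0.39 (adjusted p = 0.143), Kcnk13 at -0.30 (adjusted p = 0.127) and Entpd1 at -0.33 (adjusted p = 0.240). A term that set mice 1931 to 1936 (1 control and 3 CSF1 OE) against the other 4 (control mice 1827, 1872 and 1874 with CSF1 OE mouse 2019) moved estimates the other way, to 0.29 for Adora3, 0.28 for Kcnk13 and 0.32 for P2ry6, and to -1.21 for Adora2a and -0.97 for Nt5e. In these 3 fits 2, 2 and 4 of the 8 genes had an unadjusted p under 0.05, beside 21.6%, 21.3% and 32.6% of all genes, and none was called. The lowest adjusted p of any of the 8 in any fit was 0.0616, for Nt5e by edgeR with the term for mice 1931 to 1936. With 1 control and 3 CSF1 OE mice on that side, this term cannot be fully parted from genotype either.

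**Figure D4:**
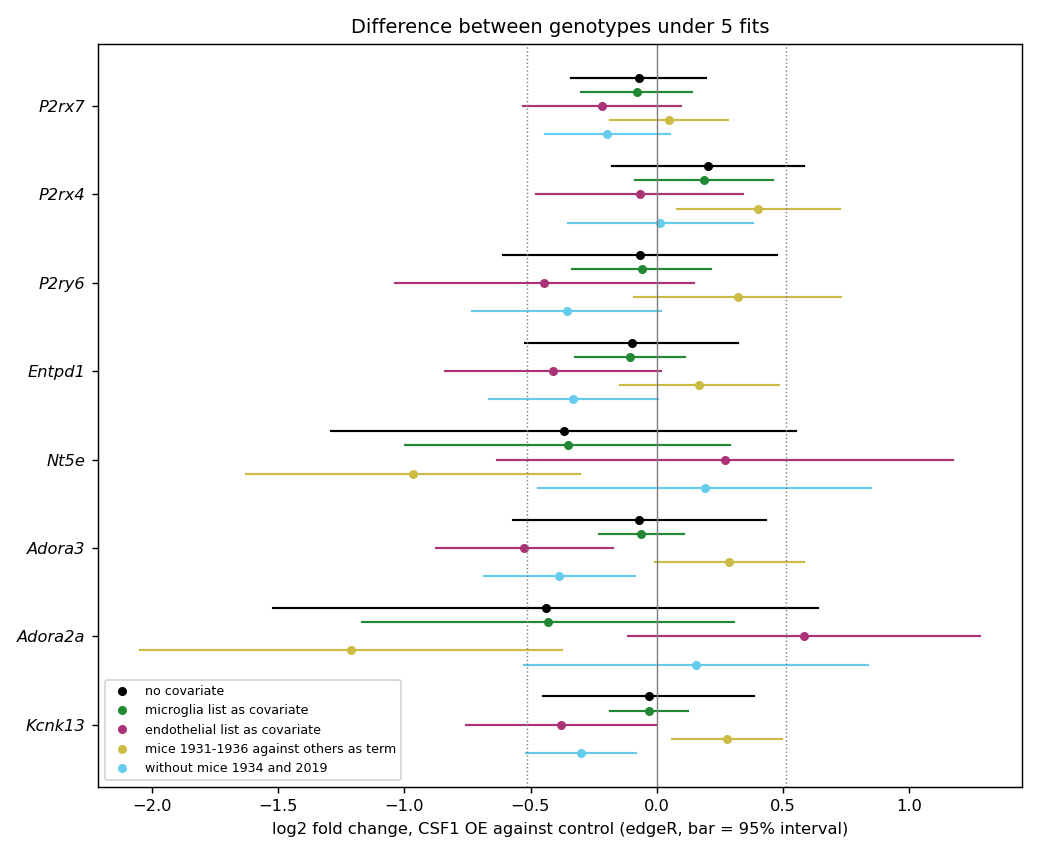
Log2 fold change of CSF1 OE against control with its 95% interval (bars) for the 8 genes under 5 edgeR fits, with dotted lines at the fold thresholds of 0.7 and 1.43. Intervals are narrowest for Kcnk13 and Adora3 with the microglial covariate (green), and estimates of P2ry6, Entpd1, Adora3 and Kcnk13 are below 0 with the endothelial covariate and above 0 when animal number was fitted.

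The stretches of 250 bases before annotated starts are shown for 3 of the genes that followed the microglial sum, from RefSeq promoters on GRCm38.p6, in which 6 of the 8 genes had an entry and P2ry6 and Adora2a had none. Capitals mark GAGGAAG, a core of sites for the myeloid factor PU.1, or its reverse complement. Both strands were searched, and the motif was chosen with the sequences in view. The Adora3 stretch is chr3:105904171-105904420, the Entpd1 stretch belongs to its second listed start at chr19:40659520-40659769, and the Kcnk13 stretch is chr12:99964249-99964498, all on the plus strand.
Adora3: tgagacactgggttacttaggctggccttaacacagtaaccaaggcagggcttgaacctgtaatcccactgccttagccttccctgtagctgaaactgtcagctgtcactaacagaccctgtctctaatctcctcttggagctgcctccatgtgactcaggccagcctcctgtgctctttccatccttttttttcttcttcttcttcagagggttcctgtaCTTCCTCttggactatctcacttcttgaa
Entpd1: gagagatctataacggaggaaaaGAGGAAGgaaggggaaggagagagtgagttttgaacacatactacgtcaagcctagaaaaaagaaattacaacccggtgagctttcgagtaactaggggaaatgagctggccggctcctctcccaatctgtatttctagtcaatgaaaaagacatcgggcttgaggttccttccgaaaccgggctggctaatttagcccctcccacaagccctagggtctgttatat
Kcnk13: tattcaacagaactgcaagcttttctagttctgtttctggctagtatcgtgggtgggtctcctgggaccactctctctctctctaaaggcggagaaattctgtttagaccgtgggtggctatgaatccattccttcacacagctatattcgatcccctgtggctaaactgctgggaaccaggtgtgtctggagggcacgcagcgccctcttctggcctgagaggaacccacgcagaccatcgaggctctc

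The motif was present in 2 of the 8 listed promoters of these genes, those of Adora3 and of the second Entpd1 start, beside 10.6% of all 32851 promoters of the same length. In Adora3 it lay 29 bases before the start, on the minus strand, and in Entpd1 227 bases before it. The letters were not in the Kcnk13 window, although Kcnk13 followed the microglial sum most closely in value. The windows also differed in base composition, with 48.8% GC and 0 CpG in Adora3, 47.2% and 8 in Entpd1, and 52.8% and 8 in Kcnk13, beside medians of 52.4% and 6 over all promoters. The Nt5e window was the richest of the 8, with 72% GC and 21 CpG.

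Other genes of the pathway were counted in 8 lists, which without the 8 genes above named 62 genes, of which 61 were in the table and 45 were tested. None was called, and 19 were higher and 26 lower in CSF1 OE mice, 42.2% higher beside 44.8% of all genes tested. Their median log2 fold change was -0.080. An unadjusted p under 0.05 was reached by 6 genes, 13.3% of those tested, and 4 genes had genotypes that did not overlap, 8.89%. Both shares were below those of all genes given above.

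Among receptors, 4 of 7 P2X genes were tested, with 2 higher and 2 lower estimates from P2rx1 (log2 fold change -0.28) to P2rx6 (0.35), and none passed an unadjusted p of 0.05. Of 9 P2Y genes 6 were tested, 2 higher and 4 lower, also with none passing, and P2ry10b was not matched to the table. P2ry12, the abundant ADP receptor of resting microglia, was at 4674 ± 1068 CPM in the control mice and 3988 ± 822 CPM in the CSF1 OE mice (log2 fold change -0.23, adjusted p = 0.626 by edgeR), and its close relative P2ry13 had a log2 fold change of -0.25. P2ry2, which answers to ATP and UTP, had the highest estimate of any pathway gene, 0.81 (SE 0.44, adjusted p = 0.400 by edgeR). Control mice had 2.62, 2.97, 2.04 and 4.38 CPM of P2ry2, and CSF1 OE mice had 5.09, 7.86, 6.47 and 1.59 CPM. CSF1 OE mice 1931, 1932 and 1936 were above every control and mouse 2019 was below all of them. Without mice 1934 and 2019 the P2ry2 estimate was 1.35 and was called (adjusted p = 0.0497 by edgeR). It was the only pathway gene called in that fit, where 166 of all genes were called. P2ry1 had the lowest P2Y estimate, -0.57 (adjusted p = 0.383). All 4 adenosine receptors had estimates below 0, from -0.44 for Adora2a to -0.066 for Adora1, but only 1 of 4 did with the endothelial covariate or without mice 1934 and 2019.

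Of the 8 enzymes that cut extracellular nucleotides 7 were tested, and 3 of these, 42.9% beside 10.3% of all genes tested, had genotypes that did not overlap without being called. Entpd3, an ectonucleotidase better known from neurons, was at 1.24 to 1.75 CPM in control and 0.514 to 0.954 CPM in CSF1 OE mice (log2 fold change -1.001, SE 0.30, adjusted p = 0.161 by edgeR). Enpp1, which hydrolyses ATP to AMP and also cleaves extracellular cGAMP, was at 18.2 to 21.3 and 22.3 to 26.5 CPM (log2 fold change 0.32, SE 0.10, adjusted p = 0.168 by edgeR). Alpl, a phosphatase also made by brain endothelium and named after its values were seen, was at 8.67 to 10.7 and 3.36 to 7.72 CPM (log2 fold change -0.86, SE 0.24, adjusted p = 0.139 by edgeR). Alpl was called by DESeq2 (adjusted p = 0.0164), which called 427 of all genes. The endothelial markers were lower beside it, and their part in the Alpl value was not tested. The list as a whole had 1 higher and 6 lower estimates, and 4 higher and 3 lower with the endothelial covariate.

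Adenosine handling within cells gave 5 higher and 8 lower estimates among 13 tested genes. Ahcy, which splits S-adenosylhomocysteine into adenosine and homocysteine, had the highest, with 21.1 to 34.1 CPM in control and 31.4 to 42.2 CPM in CSF1 OE mice (log2 fold change 0.54, SE 0.16, adjusted p = 0.164 by edgeR). The concentrative nucleoside transporter Slc28a3 had the lowest, -0.68 (adjusted p = 0.339). Of 6 tested genes of ATP release, 2 were higher and 4 lower, from the pannexin Panx2 at -0.57 to Calhm2 at 0.22. Of 6 tested K2P potassium channels, Kcnk13 among them, 1 was higher and 5 lower, from Kcnk5 at -0.85 (adjusted p = 0.372) to Kcnk6 at 0.33 (adjusted p = 0.574).

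The 7 genes of the NLRP3 inflammasome, which potassium efflux through P2rx7 and Kcnk13 is known to engage, all had estimates above 0, beside 44.8% of all genes tested. Their median was 0.39, and 0 were called. Nlrp3, the sensor, was at 182 to 341 CPM in the control mice and 199 to 662 CPM in the CSF1 OE mice (log2 fold change 0.69, SE 0.33, adjusted p = 0.337 by edgeR). Casp1, the protease that matures interleukin-1 and named after its values were seen, was at 20.7 to 26.2 and 29.8 to 44.9 CPM without overlap (log2 fold change 0.60, SE 0.14, adjusted p = 0.0937 by edgeR). DESeq2 called it (adjusted p = 0.00843) among 427 of all genes. Il18 had the lowest estimate, 0.026. Of the 7, 3 were above 0 with the endothelial covariate, and 4 without mice 1934 and 2019.

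**Figure D5:**
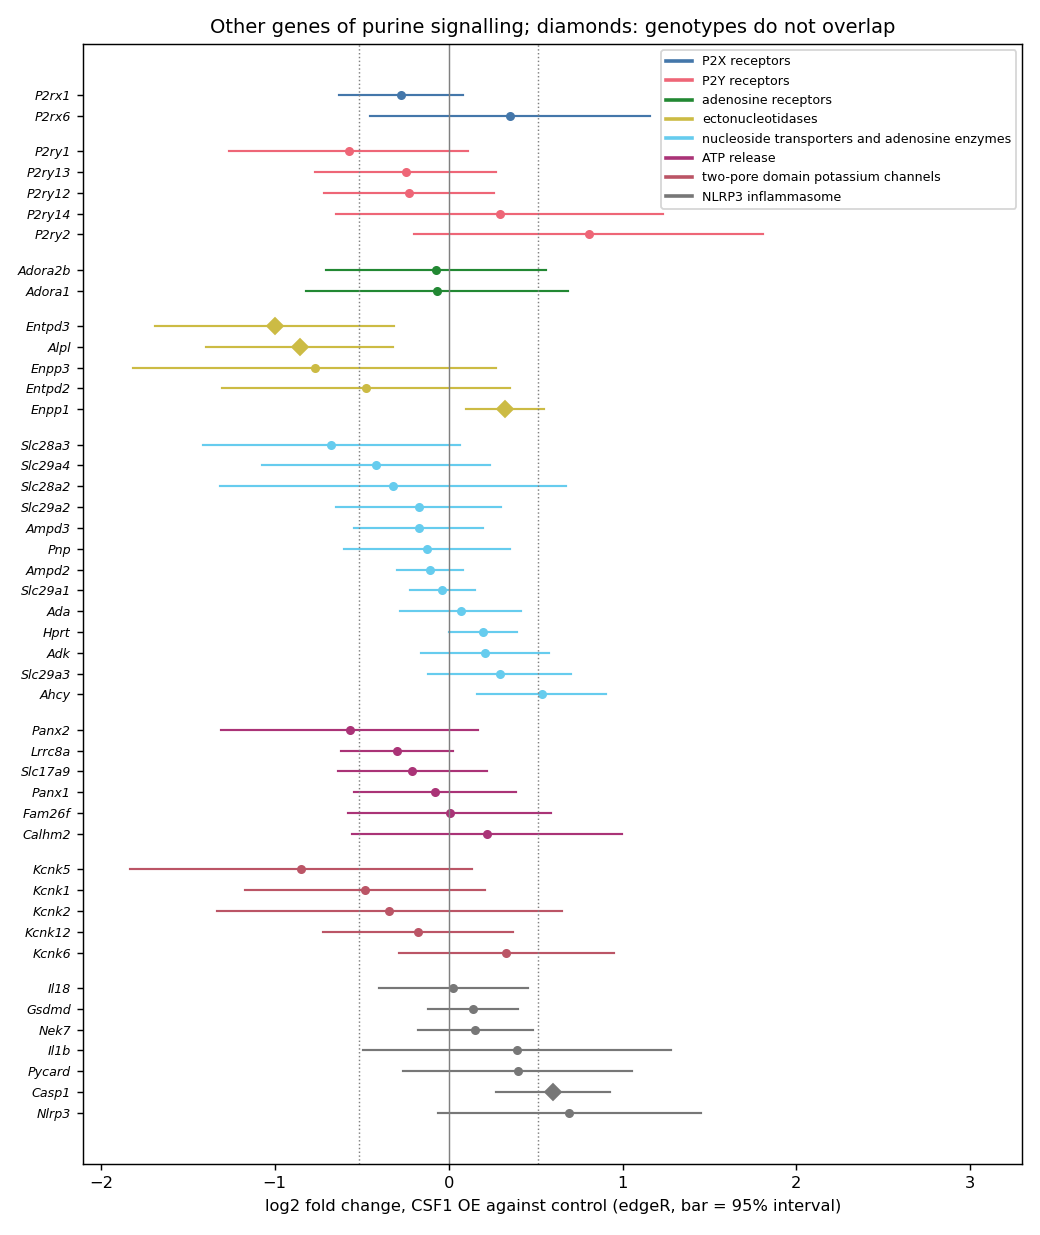
Log2 fold change of CSF1 OE against control with its 95% interval for the 45 tested pathway genes outside the 8, coloured by list, with dotted lines at the fold thresholds and diamonds for genes whose genotypes do not overlap. The 4 diamonds are Entpd3, Alpl, Enpp1 and Casp1, and P2ry2 has the highest estimate at 0.81.

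The genes whose pattern over the 8 mice was most like each of the 8 were named by Pearson r of log2 CPM, as a description over 8 libraries that share depth and cell makeup. Kcnk13 was most like Galnt4 (r = 0.993) and Mapk14 (r = 0.992), Entpd1 most like Stat6 (r = 0.994) and Sipa1l2 (r = 0.993), and P2ry6 most like Tesk1 (r = 0.995) and Sirpa (r = 0.991). Adora3 was most like Itm2b (r = 0.983) and Fam134b (r = 0.980). P2rx4 was most like Clec5a (r = 0.977) and Fam117b (r = 0.977), and P2rx7 most like Retnlg (r = 0.971), a gene of neutrophils, and Alox15 (r = 0.965). The 6 neutrophil markers, Retnlg among them, summed to 45.8 to 104 CPM in control and 15.9 to 227 CPM in CSF1 OE mice. Their sum was highest in mouse 2019 and lowest in mouse 1931, and its part in the P2rx7 values was not tested. Nt5e was most like Col23a1 (r = 0.992) and Lrfn5 (r = 0.989), and Adora2a most like Rgcc (r = 0.996) and Dnah7b (r = 0.990). P2rx7 had the fewest such companions, with 22 genes over r = 0.9, and Adora2a the most, with 531.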

How the data were processed

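RNA of CD11b+ cells from 8 mice was sequenced as paired reads on 1 lane, with a kit that keeps no strand. The authors aligned the reads with Bowtie 1.0.0 and made expected counts per gene symbol with RSEM 1.2.7, per the labels and the submitters' processing notes, which also name bcl2fastq 1.8.4 and mm10. RSEM divides a read between genes it fits, and of the 20308 genes of the table, those at 0 included, 20.8% to 26.5% in a library had a value not exactly whole. The annotation the authors used is not given in the sources used here. A second deposited table, a signal on the scale of counts, holds these values after division by a size factor of each mouse.

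Expected counts were rounded and tested for genotype over all 8 mice in R 4.3.3 with edgeR 4.0.16 (TMM, filterByExpr, glmQLFit, glmQLFTest), two-sided, with no covariate. CPM used TMM-scaled totals, and log2 CPM a prior count of 2. Totals were 12908195 to 15475488 in control (median 14926703) and 12053280 to 14356538 in CSF1 OE mice (median 13146102), and the common biological coefficient of variation was 0.228. Single values were compared with exact permutation tests over 70 assignments, whose smallest p is 0.0286, and relations over all 40320 pairings. Exon lengths and positions came from GENCODE M21 on GRCm38, and promoters from RefSeq.

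The alternatives were DESeq2 1.42.0, upper-quartile scaling, a filter that kept every gene with any count, a minimum of 10 counts per library, limma 3.58.1 with its trend method on log2 of the deposited normalized values plus 1, a term that set mice 1931 to 1936 against the other 4 (1827, 1872, 1874 and 2019), an endothelial covariate and each mouse left out. The microglial covariate, CPM per microglial sum and the omission of mice 1934 and 2019 together were chosen once the data were known. The members and lists were chosen with earlier results of these data known. The genes named were the 8, the called genes of each list (none in edgeR without a covariate), the highest and lowest estimate of each list, and the 2 genes most like each of the 8. Other genes, such as P2ry12, P2ry13, Alpl and Casp1, were named outside this rule after their values were seen. The methods were tested on simulated data. EBSeq, which the study used, was not run here.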

Additional observations from a re-analysis of the deposited data

Results flagged for a closer look

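The levels of the 8 genes were examined for a mouse far from the other 3 of its genotype, over 16 groups of 4 mice. By Dixon's criterion 3 values stood apart, where chance gives about 1 in 20 groups. These groups hold the same 8 mice and are not independent, so the count cannot be weighed against that rate. P2ry6 and Entpd1, for example, had r = 0.960 over the 8 libraries. Control mouse 1934 had 112 CPM of P2ry6, beside 214 to 231 CPM in the other control mice. The same mouse had 435 CPM of Entpd1, beside 661 to 689 CPM. CSF1 OE mouse 2019 had 109 CPM of Adora3, beside 72.9 to 75.1 CPM in the other CSF1 OE mice. These are the mice with the lowest and the highest microglial sum, 20277 and 37305 CPM.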

How the results depend on the processing

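No call of the 8 genes changed under 17 alternatives (16 for Adora2a, which a minimum of 10 counts leaves out), and 0 were called in each. The signs were less firm. With the term for animal numbers, which puts mouse 2019 with controls 1827, 1872 and 1874, the log2 fold change was 0.048 for P2rx7, 0.32 for P2ry6, 0.17 for Entpd1, 0.29 for Adora3 and 0.28 for Kcnk13. With the endothelial covariate it was -0.066 for P2rx4, 0.27 for Nt5e and 0.58 for Adora2a, and without mice 1934 and 2019 it was 0.19 for Nt5e and 0.16 for Adora2a. With 1 mouse left out it ran from -0.24 to 0.040 for P2ry6, -0.22 to 0.0061 for Entpd1, -0.23 to 0.050 for Adora3 and -0.17 to 0.069 for Kcnk13.

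Of all genes, 59 were called, and 427 by DESeq2 (63.5% of them higher, against 88.1%), 19 with upper-quartile factors, 105 by limma, 1274 with the term for animal numbers (23.8% higher), 98 with the endothelial covariate (65.3% higher), 371 with the microglial covariate (58.8% higher) and 166 without mice 1934 and 2019 (62.7% higher). With 1 mouse left out the count ran from 3 (without control 1872 or 1874) to 164 (without control 1827), with 4 without CSF1 OE 1931, 8 without 1936, 10 without control 1934 and 18 without CSF1 OE 1932. Of the pathway genes, 0 were called, and 2 by DESeq2 and with the microglial covariate (Alpl and Casp1), 5 with the term for animal numbers (also Kcnk1, Kcnk2 and Slc29a3) and 1 without mice 1934 and 2019 (P2ry2). The cause was not tested. No paired analysis was made, since the sources used here name no litter or processing group by which mice could be paired. Nt5e and Adora2a had as few as 14 and 9 counts in a library, and the part of depth in their spread was not tested.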
